A study of Mus musculus with 12 samples.

Results

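This account covers 30 mouse genes that encode glutamate receptors and transporters, out of the 51341 genes in the deposited expression table. They are 4 AMPA, 1 delta, 5 kainate and 7 NMDA receptor genes, 7 metabotropic receptor genes, 3 vesicular glutamate transporter genes and 3 membrane glutamate transporter genes. Members were chosen by gene symbol and class, with earlier results of these data known. Each was matched to its row by its Ensembl identifier. The glial glutamate transporter gene Slc1a3 was not among the members and is given with related genes below. RNA sequencing had been done on trigeminal ganglia, the sensory ganglia of the face and the meninges, from 12 mice of the CD1 stock. The 6 responders had reacted to PACAP (pituitary adenylate cyclase-activating polypeptide, a neuropeptide linked to migraine) and the 6 nonresponders had not, per the series design. Each group held 3 males and 3 females, all without a genetic modification named in the labels, and each library was labelled as 1 mouse. The ages of the mice, how a response was scored and the interval between PACAP and dissection were not given in the sources available. The title of the series names light aversion as the behaviour and treats it as heritable.

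Glutamate is the fast excitatory transmitter of sensory neurons. Vesicular transporters load it into synaptic vesicles, AMPA and kainate receptors carry fast currents, NMDA receptors need a GluN1 subunit together with GluN2 or GluN3 subunits, and metabotropic receptors act through G proteins. Membrane transporters take glutamate up again into neurons and glia. In a ganglion, the receptors made by the neuron cell bodies may be used there or carried to the nerve endings, and transcript levels do not tell these apart.

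The vesicular transporter genes were the most and the least abundant members, and for that reason their promoters are shown here. The sequences are the 250 bases before the most upstream RefSeq start of each gene (GRCm38.p6), written 5′ to 3′ on the strand of the gene. Capitals mark the GC box GGGCGG, searched on both strands, so that a match on the other strand reads CCGCCC. The window of Slc17a7 lies at chr7:45163671-45163920 on the plus strand, that of Slc17a6 at chr7:51621580-51621829 on the plus strand and that of Slc17a8 at chr10:89621250-89621499 on the minus strand.
Slc17a7: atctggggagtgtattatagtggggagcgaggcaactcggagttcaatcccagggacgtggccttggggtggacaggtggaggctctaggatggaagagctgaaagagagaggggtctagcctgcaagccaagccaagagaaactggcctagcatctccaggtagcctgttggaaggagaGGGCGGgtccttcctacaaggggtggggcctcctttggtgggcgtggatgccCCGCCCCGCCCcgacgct
Slc17a6: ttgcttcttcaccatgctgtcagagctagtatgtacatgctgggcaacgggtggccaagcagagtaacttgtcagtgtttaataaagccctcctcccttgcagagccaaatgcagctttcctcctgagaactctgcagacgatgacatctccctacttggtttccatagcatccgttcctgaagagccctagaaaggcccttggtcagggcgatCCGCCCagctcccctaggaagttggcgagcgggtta
Slc17a8: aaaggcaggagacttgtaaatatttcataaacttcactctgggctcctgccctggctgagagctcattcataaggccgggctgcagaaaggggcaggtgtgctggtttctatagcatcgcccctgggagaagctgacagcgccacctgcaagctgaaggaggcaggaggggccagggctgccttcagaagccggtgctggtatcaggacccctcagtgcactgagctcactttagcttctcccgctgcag
The Slc17a7 window held 3 GC boxes, of which the last pair overlap by 1 base, the Slc17a6 window held 1 and the Slc17a8 window 0. GC content was 61.2%, 53.2% and 57.2% in that order. RefSeq windows were found for 21 of the 30 members, 26 windows in all, and 13 of them (50.0%) held a GC box, against 10756 of 32851 windows of that length over all genes (32.7%). The median GC content was also higher in the member windows, at 61.6% against 52.4% over all windows. Windows of the same gene were counted separately, and those of Grm7 overlap. These letters describe the windows and say nothing of which factors bind there.

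Values are FPKM, fragments per kilobase of transcript scaled to the depth of the library, so that levels of different genes can be set side by side per length. The unit was inferred from the values, as described under the processing. Implied depth ran from 17300000 to 38800000 fragments per mouse, and 12648 to 13994 genes reached 1 FPKM. Sensory neuron markers marked the tissue as labelled: Prph (peripherin) stood between 308 and 645 FPKM and Tubb3 between 428 and 1007, and 19 of 20 such markers passed the filter on low values. P2rx3, a purinergic receptor of nociceptors, lay between 0.0786 and 2.08 FPKM. In 3 mice the members stood apart from the others. Responder 1 had the highest pituitary values (growth hormone, Gh, at 63429 FPKM), responder 3 the highest central neuron values (the GABA transporter gene Slc32a1 at 5.48 FPKM, at most 0.284 elsewhere), and nonresponder 4 the highest leukocyte values (S100a8 at 1706 FPKM, at most 368 elsewhere). In bulk tissue, fewer cells of a type and less RNA per cell cannot be told apart. Each number that opens a sample description (44, 45, 48 and 49 in responders, 68, 82 and 83 in nonresponders) held mice of 1 response group and of 1 sex, so that what it stands for cannot be told apart from the response or, in the comparison of the sexes, from sex.

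Of the 30 members, 17 reached 1 FPKM in every mouse and 22 in at least 1 mouse, while 0 were listed at 0 in all of them. The filter for testing, at least 1 FPKM in at least 3 mice, kept 20 members and left out 10. Ordered by mean level over the 12 mice, the vesicular transporter gene Slc17a7 came first at 70.6 ± 14.7 FPKM, followed by Slc17a6 at 54.5 ± 9.62, the kainate receptor gene Grik1 at 31.1 ± 5.71 and the NMDA receptor gene Grin1 at 20.9 ± 3.86 (SD, n = 12). The first 3 steps of this order held in all 12 mice. Gria4 (13.3 ± 2.83), Grm4 (12.2 ± 2.87) and Grik5 (10.2 ± 1.63) came next, and these neighbours crossed in single mice: Gria4 lay above Grm4 in 7 mice and Grm4 above Grik5 in 10. Grm7, Grik4, Grik3 and Gria2 followed, with means from 7.56 down to 5.20 FPKM, and neighbours among them kept their order in 10 or 11 of 12 mice. Further down, Gria3, Grik2, Grin3a and Slc1a2 had means between 2.96 and 2.61 FPKM, and neighbouring pairs kept the order of their means in 8 mice or fewer. The lowest tested members were Slc1a1, Slc1a6 and Grm3, with means of 2.26, 1.23 and 1.13 FPKM. Slc1a1 lay above Slc1a6 in all 12 mice, and Slc1a6 above Grm3 in 9.

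**Figure D1:**
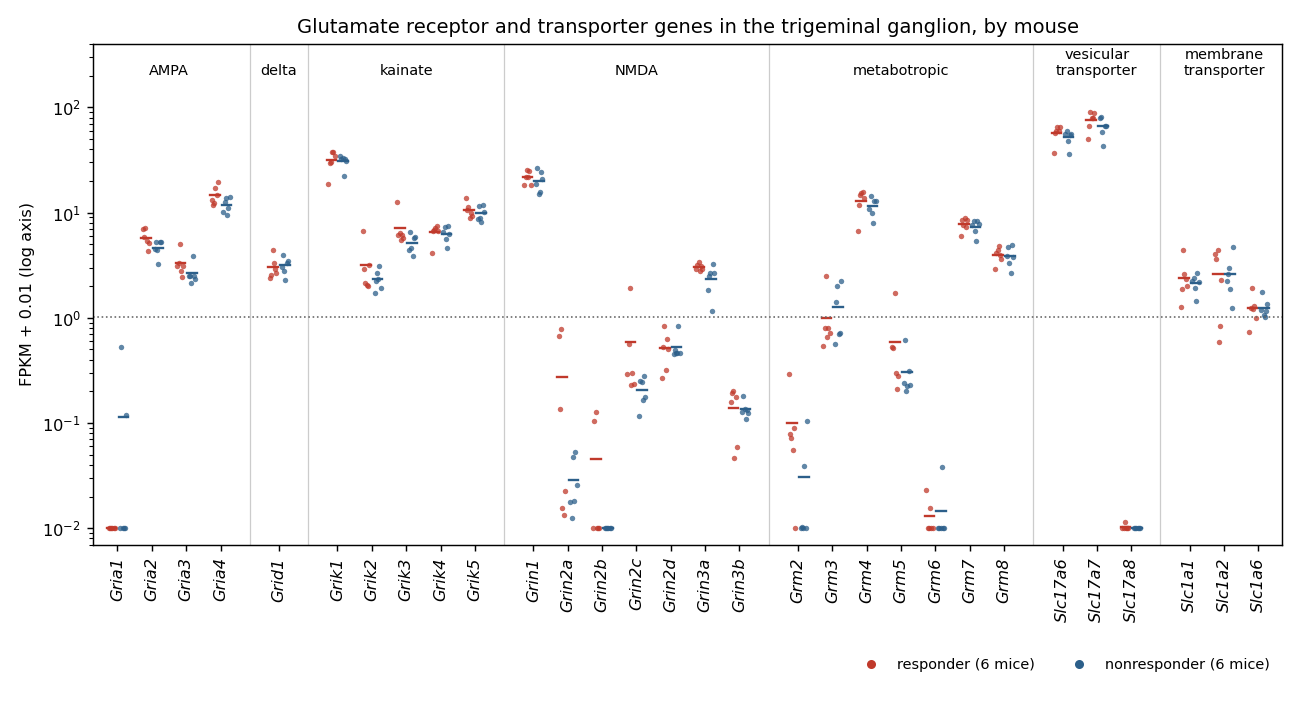
FPKM of the 30 members in each mouse on a log axis, with a small constant added so that listings of 0 can be drawn; points are mice, short bars are group means, and the dotted line marks 1 FPKM. The vesicular transporter genes Slc17a7 and Slc17a6 sit at the top, the GluN2 genes, Grm2, Grm6, Gria1 and Slc17a8 sit low, and the red (responder) and blue (nonresponder) points overlap for every tested member.

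Vesicular transporters move glutamate into vesicles and mark neurons that release it. Slc17a7, which encodes VGLUT1 (ENSMUSG00000070570, chr7:45163949-45176142, plus strand, GRCm38), ranged from 50.4 to 89.5 FPKM in responders with a median of 78.6, and from 43.0 to 80.1 in nonresponders with a median of 66.5. Slc17a6, which encodes VGLUT2 (ENSMUSG00000030500, chr7:51622006-51671119, plus strand), ranged from 36.7 to 65.2 FPKM in responders (median 59.7) and from 35.9 to 60.1 in nonresponders (median 55.3). The lowest value of each group was that of responder 1 and of nonresponder 4 for both genes, and the groups overlapped over most of their range. Slc17a7 exceeded Slc17a6 in all 12 mice, by a ratio of 1.29 ± 0.108 (SD, n = 12, range 1.17 to 1.51), so that the balance of the pair varied far less than either level. Slc17a8, which encodes VGLUT3, was listed at 0.0015 FPKM in responder 3 and at 0 in the other 11 mice.

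Among AMPA receptor genes, Gria4 (GluA4; ENSMUSG00000025892, chr9:4417896-4796234, minus strand) held most of the transcript. It ranged from 11.8 to 19.4 FPKM in responders with a median of 13.96 and from 9.39 to 14.2 in nonresponders with a median of 11.9, and responders 4 and 6 and, by a smaller margin, responder 5 lay above every nonresponder. Gria2, whose GluA2 subunit lowers the calcium permeability of the receptor, ranged from 4.34 to 7.06 FPKM in responders (median 5.60) and from 3.20 to 5.29 in nonresponders (median 4.87). Gria3 ranged from 2.44 to 5.04 FPKM in responders (median 3.09) and from 2.12 to 3.87 in nonresponders (median 2.49). For both genes the highest value was in responder 3 and most nonresponders lay inside the range of the responders. Gria4 made up 61.5 ± 6.20%, Gria2 24.2 ± 3.96% and Gria3 13.98 ± 4.17% of the summed AMPA FPKM (SD, n = 12). Gria1, the gene of the widespread brain subunit GluA1, was listed at 0 in 10 mice, at 0.514 FPKM in nonresponder 2 and at 0.109 in nonresponder 6. An exact 0 here is a listing and may reflect how transcripts were assigned, which was not tested. Grid1 encodes the delta receptor GluD1, a synaptic adhesion protein of the ionotropic family, and ranged from 2.40 to 4.36 FPKM in responders (median 2.76) and from 2.27 to 3.96 in nonresponders (median 3.18).

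Kainate receptors are known in sensory neurons above all through GluK1, the product of Grik1. Grik1 (ENSMUSG00000022935, chr16:87895900-88290265, minus strand) ranged from 18.6 to 37.9 FPKM in responders with a median of 32.3 and from 22.1 to 34.6 in nonresponders with a median of 32.2. Its low values were again those of responder 1 and nonresponder 4, and the other 10 mice lay between 29.5 and 37.9. Grik5 and Grik4 encode the subunits GluK5 and GluK4, which form channels only together with GluK1 to GluK3. Grik5 (ENSMUSG00000003378, chr7:25009849-25072346, minus strand) ranged from 8.82 to 13.7 FPKM in responders (median 10.2) and from 8.11 to 11.8 in nonresponders (median 9.45), and Grik4 from 4.08 to 7.52 (median 6.75) and from 4.64 to 7.41 (median 6.35). Grik3 ranged from 5.44 to 12.5 FPKM in responders (median 6.08) and from 3.86 to 6.55 in nonresponders (median 5.17). Grik2 ranged from 1.98 to 6.60 FPKM in responders (median 2.51) and from 1.72 to 3.12 in nonresponders (median 2.26). In responder 1 the class was made up differently from all other mice: Grik2, Grik3 and Grik5 were at their highest and Grik1 and Grik4 at their lowest, so that Grik1 held 33.6% of the kainate FPKM there and between 53.0% and 61.9% in the other 11 mice.

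**Figure D2:**
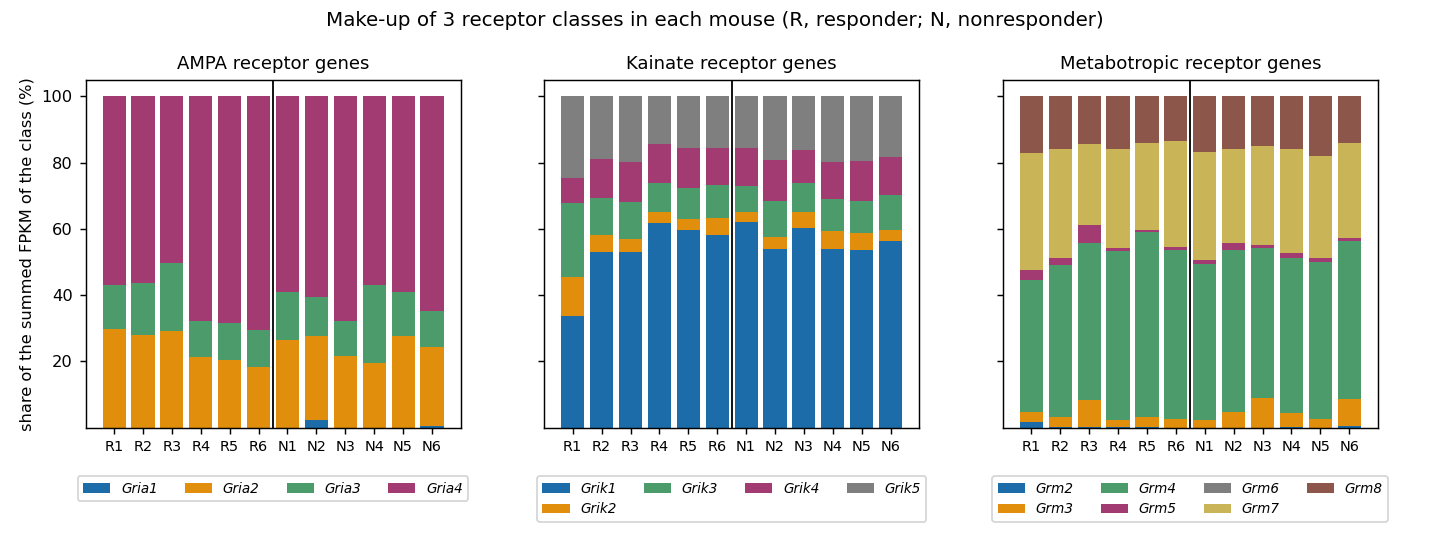
Share of the summed FPKM of its class (percent) held by each AMPA, kainate and metabotropic receptor gene, as stacked bars for responders 1 to 6 (R1 to R6) and nonresponders 1 to 6 (N1 to N6). Gria4, Grik1 and Grm4 hold the largest share of their class on average, and the kainate bar of responder 1 stands apart with 33.6% Grik1.

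Of the NMDA receptor transcript, 84.5 ± 3.51% was that of the obligatory subunit gene Grin1 and 10.9 ± 2.22% that of Grin3a (SD, n = 12). Grin1, which encodes GluN1 (ENSMUSG00000026959, chr2:25291181-25319187, minus strand), ranged from 18.1 to 25.3 FPKM in responders with a median of 21.8 and from 14.8 to 26.4 in nonresponders with a median of 19.7. Nonresponders 3 and 4 (14.8 and 15.7) lay below every responder and nonresponder 2 (26.4) above every responder. Grin1os, an antisense gene, shares 13.5% of the exonic bases of Grin1 and lay between 2.62 and 5.30 FPKM, and whether reads were counted by strand was not given in the sources used here, so part of either value may belong to the other. Grin3a (GluN3A; ENSMUSG00000039579, chr4:49661611-49845744, minus strand) ranged from 2.80 to 3.36 FPKM in responders with a median of 3.00 and from 1.16 to 3.21 in nonresponders with a median of 2.56. All 6 responders lay above 5 of the nonresponders, and nonresponder 5, at 3.21 FPKM, lay above 5 of the responders.

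The 4 GluN2 genes, which supply the glutamate-binding subunit, stood far below Grin1. Grin2d lay between 0.256 and 0.819 FPKM, Grin2c between 0.108 and 1.91, Grin2a between 0.00252 and 0.768, and Grin2b was listed at 0 in 10 mice and at 0.0940 and 0.117 FPKM in responders 2 and 3. Grin1 was 25.1 ± 9.65 times the sum of the 4 (SD, n = 12), with the lowest ratio, 6.998, in responder 3 and the highest, 40.5, in responder 4. Grin2c was at 1.91 FPKM in responder 3 and at most 0.552 in any other mouse. Grin2a was at 0.666, 0.125 and 0.768 FPKM in responders 1, 2 and 3 and at most 0.0431 in the other 9 mice. Responders 1, 2 and 3 also had the highest summed pituitary marker level, from 3712 to 77956 FPKM, against 27.2 to 1175 in the other mice, and responder 3 the highest central neuron markers. Whether these play a part in the GluN2 values was not tested. Grin3b (GluN3B) lay between 0.0361 and 0.191 FPKM, and 32.1% of its exonic bases overlap Tmem259 on the opposite strand, a gene at 24.8 to 34.9 FPKM.

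Group III metabotropic receptors, which inhibit adenylyl cyclase and transmitter release, led their class. Grm4 (mGlu4; ENSMUSG00000063239, chr17:27422387-27521403, minus strand) ranged from 6.71 to 15.6 FPKM in responders with a median of 14.2 and from 7.93 to 14.2 in nonresponders with a median of 11.9. Grm7 (mGlu7) ranged from 5.94 to 8.96 FPKM in responders (median 8.02) and from 5.31 to 8.40 in nonresponders (median 7.67). Grm8 (mGlu8) ranged from 2.90 to 4.85 FPKM in responders (median 4.01) and from 2.66 to 4.92 in nonresponders (median 3.84). For all 3 genes the lowest value was that of responder 1 in its group and of nonresponder 4 in the other. Of the summed metabotropic FPKM, Grm4 held 47.9 ± 3.88%, Grm7 30.2 ± 2.99% and Grm8 15.5 ± 1.42% (SD, n = 12). Grm6, the group III receptor of retinal bipolar cells, was listed at 0 in 9 mice and at no more than 0.0281 FPKM in the other 3.

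The remaining metabotropic genes were low. Grm5 (mGlu5), which couples to phospholipase C, was at 1.70 FPKM in responder 3 and between 0.193 and 0.606 in the other 11 mice. Grm2 (mGlu2) lay between 0 and 0.283 FPKM, with its highest value in responder 1. Grm3 (mGlu3), a group II receptor that central glia also make, ranged from 0.535 to 2.48 FPKM in responders (median 0.749) and from 0.552 to 2.21 in nonresponders (median 1.06). It exceeded 1 FPKM in responder 3 (2.48) and in nonresponders 2, 3 and 6 (1.40, 2.00 and 2.21), and was at most 0.785 in the other 8 mice. In the same 4 mice the oligodendrocyte gene Opalin was at 1.94, 2.22, 2.11 and 3.09 FPKM. Nonresponder 4 had Opalin at 1.85 FPKM with Grm3 at 0.699, and the other 7 mice had at most 0.375. The central glia markers summed to 238 to 444 FPKM in those 4 mice and to 61.2 to 241 in the other 8, and their part in the Grm3 values was not tested.

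Membrane transporters clear glutamate from the extracellular space. Slc1a1, the neuronal transporter EAAC1, ranged from 1.26 to 4.35 FPKM in responders (median 2.15) and from 1.42 to 2.64 in nonresponders (median 2.21), and 31.9% of its exonic bases overlap a gene on the opposite strand, 4430402I18Rik, at 0.273 to 1.03 FPKM. Slc1a2, the glial transporter GLT-1 of the brain, had the largest SD of log2(FPKM + 1) among the tested members, 0.605, while Grm3 had the larger coefficient of variation of FPKM (63.0% against 52.5%). Slc1a2 was lowest in responders 4 and 5, at 0.574 and 0.824 FPKM, and highest in nonresponder 6 and responder 3, at 4.67 and 4.41. Central glia markers summed to 61.2 and 126 FPKM in responders 4 and 5 and to 444 and 238 in nonresponder 6 and responder 3. The order did not hold throughout: responder 1, with a sum of 103, had Slc1a2 at 4.02, and nonresponder 3, with 353, had 2.97. The part of central glia in the Slc1a2 values was not tested. Slc1a6 (EAAT4), known from cerebellar Purkinje cells, lay between 0.717 and 1.91 FPKM with its highest value in responder 3. None of the 3 separated the response groups.

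The comparison of responders with nonresponders asks whether any of these transcripts differ with the reaction to PACAP. The summed AMPA level averaged 23.8 ± 2.46 FPKM over responders against 19.2 ± 2.16 over nonresponders (SD, 6 mice each), with ranges that overlapped (21.0 to 27.6 and 16.5 to 21.8) and no test of the sum, and each of the other class sums differed between the groups by less than the larger of their SDs. No tested member separated the groups: 0 of 20 had ranges that did not overlap, where 0.549% of all 14203 genes tested did. By limma on log2(FPKM + 1), with sex as a covariate and Benjamini-Hochberg adjustment over all genes, 0 of 20 members passed an adjusted p of 0.05 (background 0.0211%), and 0 had an unadjusted p under 0.05 (background 7.4%). Adjusted p ranged from 0.678 to 0.995. Of the 20 log2 fold changes, 16 lay above 0 and 4 below, where 50.7% of all genes lay above 0. The median was 0.11 over the members and 0.0034 over all genes tested. The members were measured in the same ganglia and libraries, so that their directions are not independent of each other.

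The member nearest to the threshold was Grin3a, with a log2 fold change of 0.31 (SE 0.146, limma adjusted p = 0.678). Gria4 followed with 0.28 (SE 0.142) and Grik3 with 0.35 (SE 0.178), both with an adjusted p of 0.688, and Gria2 with 0.26 (SE 0.135, adjusted p = 0.692). The intervals bound what these data leave possible on the log2(FPKM + 1) scale, on which changes of weakly expressed genes look smaller than they are. For Slc17a7 the 95% interval of the responder over nonresponder ratio ran from 0.887 to 1.49, for Slc17a6 from 0.864 to 1.39, for Grik1 from 0.795 to 1.26, for Grin1 from 0.856 to 1.37 and for Grm4 from 0.826 to 1.47. It was widest for Slc1a2, from 0.555 to 1.60, and narrowest on the log scale for Grik5, from 0.894 to 1.28. All 20 intervals held 1, so that no direction is claimed for any member, and equal levels are not shown either. By class, all 3 tested AMPA genes had values above 0 (0.23 to 0.28), as did all 5 kainate genes (0.0031 to 0.35), both NMDA genes and both vesicular transporter genes, while Grm3 (-0.19), Slc1a2 (-0.085), Grid1 (-0.041) and Slc1a6 (-0.024) lay below.

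**Figure D3:**
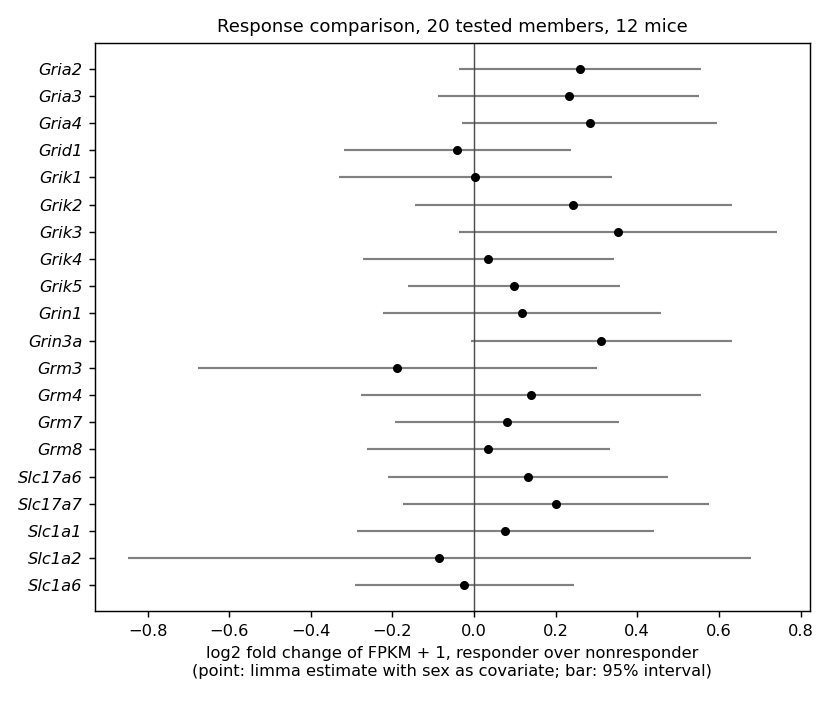
Log2 fold change of FPKM + 1, responder over nonresponder, for the 20 tested members (points: limma estimates with sex as a covariate, 12 mice; bars: 95% intervals). All bars cross 0, with Grin3a nearest to leaving it and Slc1a2 the widest.

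The median log2 fold change of the members was 0.036 without nonresponder 4, 0.064 without nonresponder 3 and 0.17 without nonresponder 5. With the mean log2 level of the sensory neuron markers as a further covariate, an alternative added after the data were seen, it was -0.0028. The summed sensory neuron markers spanned 3212 to 6232 FPKM among responders and 3662 to 5897 among nonresponders, and 2 of 19 tested markers had an unadjusted p under 0.05, both higher in responders. Myelinating Schwann cell markers summed to 2317 to 4466 FPKM in responders and 4271 to 6308 in nonresponders, and 6 of 9 had an unadjusted p under 0.05, all lower in responders. Among pituitary markers 9 of 10 had such a p, all higher in responders. Fibroblast markers summed to 261 to 514 FPKM in responders and 553 to 1610 in nonresponders, with 4 of 6 lower at that level. Over all genes tested by limma, 7.4% had an unadjusted p under 0.05 in either direction. In each of these marker lists 0 markers passed the adjusted test. No score of Schwann cells, pituitary or fibroblasts was used as a covariate. The part of these tissues, or of the sensory neurons, in the member values was not tested.

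Subtracting each mouse's mean sensory neuron marker level from the log2 value made the spread over mice smaller for 13 of the 20 tested members (65.0%), against 20.2% of all 14203 genes tested. For Grid1, Gria4 and Slc1a6, which are among the 13, it was hardly smaller, at 0.979, 0.962 and 0.959 times the first SD. The SD went from 0.235 to 0.0679 for Grik4, from 0.281 to 0.107 for Slc17a6, from 0.350 to 0.156 for Grm4 and from 0.291 to 0.148 for Grik1. For Slc17a7, Grm7 and Grm8 the SD was 0.568, 0.591 and 0.605 times what it had been. These 7 are the abundant vesicular transporter genes, the group III metabotropic genes and 2 of the kainate genes. The spread was larger for the other 7, Gria2, Gria3, Grik2, Grik3, Grik5, Grm3 and Slc1a2. Each of these had its highest value in responder 1, responder 3 or nonresponder 6. That does not set them apart, since Slc17a7, Grin3a, Grid1, Slc1a1 and Slc1a6, whose spread was smaller, were also highest in responder 3. This is a description over 12 mice, in which the markers and the members come from the same libraries. All genes tested include those of other cell types, so the shares are not of like sets of genes. Responder 1 and nonresponder 4, with the lowest sensory neuron scores (5.44 and 5.49), can weigh heavily in these SDs. The spread without them was not calculated.

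Responder 3 held the highest value of 15 of the 30 members, among them Grid1, Gria3, Grin2c, Grm5, Slc1a1 and Slc1a6. Some of the 15 were near ties or near 0, such as Slc17a7 at 89.5 FPKM against at most 89.3 elsewhere, and Slc17a8 at 0.0015. Of the 11 central neuron markers, Gad2 stood at 2.29 FPKM and Gabra6, a cerebellar granule cell gene, at 2.10 in that mouse, against at most 0.502 and 0.336 in any other, while Tbr1 and Cbln3 were at 0. The 11 markers summed to 18.2 FPKM in responder 3, to at most 2.79 in the other responders and to between 1.18 and 2.69 in nonresponders. Nonresponder 4 had the lowest value of 10 members, including both abundant vesicular transporter genes and Gria2, Gria4, Grin3a, Grm7 and Grm8. Responder 1 had the lowest value of 7 members and the highest of 4. How often responders 1 and 3 and nonresponder 4 were highest or lowest over all genes was not counted. The sensory neuron score, the mean log2 level of its markers, was lowest in responder 1 (5.44) and nonresponder 4 (5.49) and between 5.70 and 6.15 in the other 10 mice. Without these 3 mice together, an alternative added after the data were seen, 0 of 20 members passed the adjusted test and the median log2 fold change was 0.059.

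**Figure D4:**
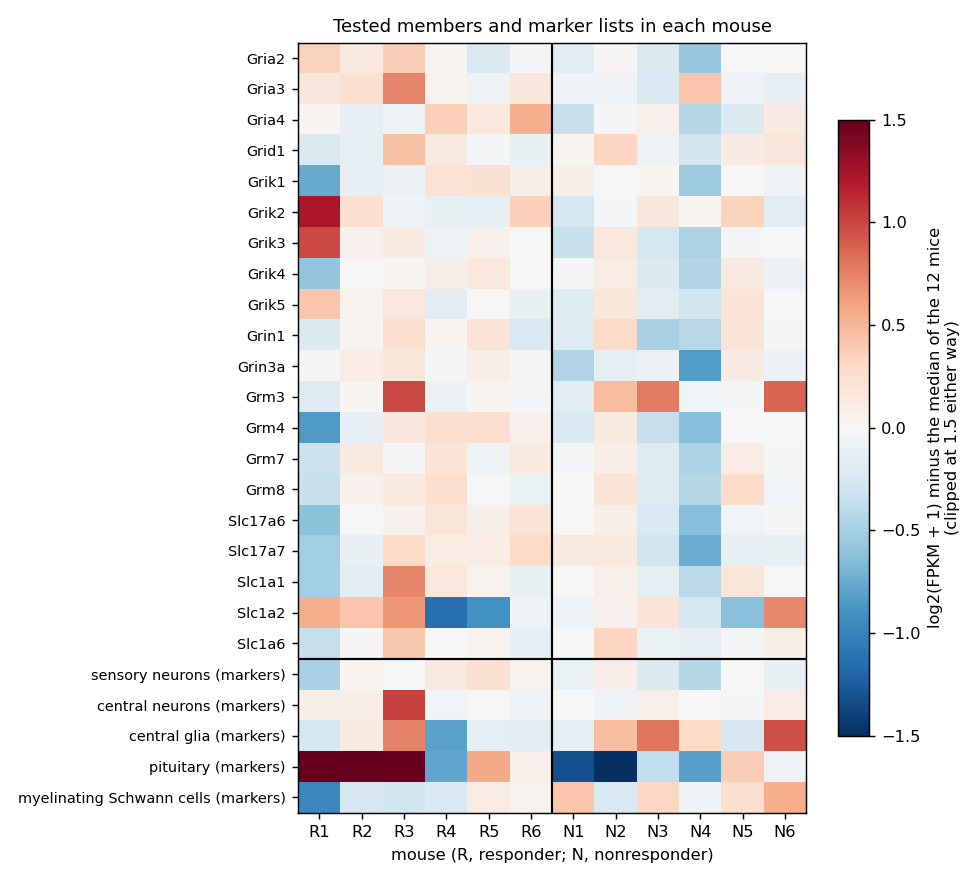
Log2(FPKM + 1) of the 20 tested members, minus the median of the 12 mice, by mouse (columns R1 to R6 responders, N1 to N6 nonresponders), with the mean of 5 marker lists below; the scale is clipped at 1.5 either way. Responder 1 and nonresponder 4 are blue for Grik1, Grik4, Grm4, Slc17a6 and Slc17a7 and for the sensory neuron markers, and responder 3 is red for Gria3, Grid1, Grm3, Slc1a1 and the central neuron markers.

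Within each sex, with 3 mice per cell and a spread shared by all 12, no member passed either. In males 0 of 20 members passed limma at an adjusted p of 0.05 (background 0.0141%) and 0 at an unadjusted p under 0.05 (6.78%), and 11 of 20 lay above 0 with a median log2 fold change of 0.064. In females the counts were 0 (0.00704%) and 0 (6.81%), and 17 of 20 lay above 0 with a median of 0.20. Over all genes tested, the median was -0.0054 in males and 5.3e-06 in females. The share of all genes above 0 was not counted within each sex. The difference between the sexes, tested as an interaction, passed for 0 members when adjusted (0% of all genes) and for 0 at an unadjusted p under 0.05 (5.01%). Slc1a2 came nearest, at 0.58 in males and -0.75 in females (interaction -1.32, SE 0.601, limma adjusted p = 0.836). The low values of this gene, in responders 4 and 5, were both in females. Grin1 stood at -0.16 in males and 0.39 in females (interaction 0.55, SE 0.276, adjusted p = 0.836).

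Between females and males, fitted with response as the covariate, 0 of 20 members passed the adjusted test (0.0563%), and 1 had an unadjusted p under 0.05 (4.53%). This was Grik2, which encodes GluK2, at 2.07 ± 0.327 FPKM in females and 3.38 ± 1.63 in males (SD, n = 6 per sex). Females ranged from 1.72 to 2.67 FPKM and males from 2.21 to 6.60, so the ranges overlapped, and the highest male was responder 1. Its log2 fold change was -0.45 (SE 0.177, limma adjusted p = 0.864).

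Glutamate receptors work with auxiliary and scaffold proteins, and glutamate itself is made and recycled by enzymes and amino acid carriers. Of 50 such genes, listed by function, 43 were tested for the response, and 0 passed the adjusted test. At an unadjusted p under 0.05 there were 6, with 5 higher in responders and 1 lower (background 7.4%). The 5 include Got1, whose listings at either of 2 levels are described below. Of the 43, 29 lay above 0 with a median log2 fold change of 0.078, where 50.7% of all genes tested lay above 0 with a median of 0.0034. Homer1, a scaffold of group I metabotropic receptors, averaged 3.81 ± 0.847 FPKM over responders against 2.87 ± 0.533 over nonresponders (log2 fold change 0.31, limma adjusted p = 0.632). Shank1, a postsynaptic scaffold, stood at 4.30 ± 0.895 and 3.21 ± 0.716 (0.33, adjusted p = 0.650). Pick1, which binds GluA2, stood at 12.6 ± 1.42 and 10.3 ± 1.65 (0.27, adjusted p = 0.645), and Camk2b, a synaptic kinase, at 11.8 ± 2.43 and 9.15 ± 1.54 (0.32, adjusted p = 0.647). Slc1a3, the glial transporter GLAST, had a log2 fold change of -0.53 (adjusted p = 0.510). It lay between 3.54 and 4.69 FPKM in responders and between 4.08 and 8.70 in nonresponders, above the 3 membrane transporter members in mean level.

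Got1, the cytosolic aspartate aminotransferase that makes glutamate, was listed at either of 2 levels. It lay between 18.1 and 33.7 FPKM in all 6 responders and at 25.8 and 25.1 in nonresponders 3 and 5, but at 0.304, 0.516, 0.848 and 0.299 in nonresponders 1, 2, 4 and 6 (log2 fold change 2.85, SE 0.842, limma adjusted p = 0.493). Glud1, the mitochondrial glutamate dehydrogenase, named here after its values were seen, was at 19.4 FPKM in responder 3 and 18.5 in nonresponder 2 and between 0.242 and 0.800 in the other 10 mice. What gives these listings was not tested.

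Known partners of the receptors differed widely in level. Cacng7, which encodes a transmembrane AMPA receptor regulatory protein, lay between 30.1 and 48.9 FPKM, Cacng5 between 7.28 and 13.4 and Cnih2 between 5.07 and 10.3, while Cacng2 (stargazin) lay between 2.30 and 5.02. The kainate auxiliary gene Neto2 lay between 2.40 and 4.51 FPKM and Neto1 between 0.535 and 1.24. Others were low: Cbln1 was listed at 0 in 10 mice, Cnih3 lay at no more than 0.213 FPKM and Cacng3 between 0.349 and 0.926, and Shisa6 and Shisa7 reached 1 FPKM in 1 mouse each. All these genes were chosen from the list after their values were seen, to set the levels of the receptors beside those of their partners. The genes of the list with an unadjusted p under 0.05 in the response comparison were named above. That none of them is among these partners follows from the choice and is not a result.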

How the data were processed

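Per the labels' protocols, ganglia were frozen after dissection and a company made poly A libraries, 1 per mouse. The authors deposited 1 table of 51341 Ensembl genes by 12 mice, with FPKM values that, per the submitters' processing notes, were made with STAR 2.6.0a and StringTie 1.3.5 on the builds GRCm38 and mm10. Its header names no unit, and the values were taken as FPKM: totals per mouse differ (286388 to 358590), and single-exon genes show 1 step per mouse, as whole fragments would. The step gives relative depth, from 17300000 to 38800000 fragments, and no counts were recovered, so that intervals from counting were not made. The annotation release and strand setting were not given in the sources used here. A sum of member FPKM depends on the rest of the library, since a few very abundant transcripts lower all other values.

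GENCODE M21 named 51024 genes and placed the members. limma 3.58.1 (R 4.3.3, eBayes without trend, prior degrees of freedom 2.23, residual 9) was run on log2(FPKM + 1) for the 14203 genes that reached 1 FPKM in 3 mice or more, 2-sided, with Benjamini-Hochberg adjustment over all of them. Designs were response with sex, 4 cell means for contrasts within each sex and their interaction, and sex with response. The procedure was tested on simulated data. Columns with identical values numbered 0. Members and gene lists were chosen with earlier results of these data known. Outside the members, the text names the 6 genes of the pathway list with the smallest p, marker genes beside a result, genes that overlap a member (Grin1os, Tmem259 and 4430402I18Rik), and Glud1, Cacng7, Cacng5, Cnih2, Cacng2, Neto1, Neto2, Cbln1, Cnih3, Cacng3, Shisa6 and Shisa7, chosen after their values were seen. Nothing in the labels says that mice were from separate litters, so p-values measure the spread between these mice. Alternatives covered the pseudocount, the filter, scaling, covariates, a replicate block and leaving out mice.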

Additional observations from a re-analysis of the deposited data

Results flagged for a closer look

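Among the 20 tested members in each of the response groups, 40 groups of 6 mice in all, 10 held a mouse whose gap to its nearest neighbour was larger, as a share of the range of the group, than the 95% critical value of Dixon's test for 6 values. Such a gap arises by chance in about 5% of groups of normally distributed values, and the 40 groups share mice and are not independent. The rule was applied to the members only, so the share of all genes that it would flag is not known. All 10 fall on 3 mice.

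Responder 1 accounted for 6 of them. It had the highest value of its group for Grik3 (12.5 FPKM) and Grik2 (6.60 FPKM), and the lowest for Grik1 (18.6), Grik4 (4.08), Slc17a6 (36.7) and Grm4 (6.71). The same library had the highest pituitary markers, with Gh at 63429 FPKM, and the lowest sensory neuron score, 5.44. Whether these play a part was not tested.

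Nonresponder 4 accounted for 3. It had the highest Gria3 of its group (3.87 FPKM) and the lowest Grik1 (22.1) and Gria2 (3.20). Its leukocyte markers summed to 2052 FPKM, against at most 447 in any other mouse, and its sensory neuron score was 5.49. The part of these in the 3 values was not tested.

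Responder 3 had the highest Grm3 of its group, at 2.48 FPKM, with the next responder at 0.785. Its central neuron and central glia markers summed to 18.2 and 238 FPKM, the highest of the responders. Their part was not tested.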

How the results depend on the processing

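The count of members past the adjusted threshold was 0 of those tested in all 24 alternatives of the response comparison, in both alternatives within males, within females and for the interaction, and in all 3 for sex. The count at an unadjusted p under 0.05 was 0 and became 1 without a sex covariate (Grin3a), with mice averaged by description number (Grin3a), with the sensory neuron score as a covariate (Grik2), with the central neuron score as a covariate (Gria4) and with responders 1 and 3 and nonresponder 4 left out (Gria3). The last 3 were added after the data were seen. The interaction count became 1 with a pseudocount of 0.1 (Slc1a2). Leaving out each mouse in turn gave from 0 to 1 such members: Gria4 without responder 2 or 3, Gria2 without responder 5, Grik3 without responder 6, Gria3 without nonresponder 4 and Grin3a without nonresponder 5. The cause of these changes was not tested.

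The median log2 fold change of the members ran from 0.036 (without nonresponder 4) to 0.17 (without nonresponder 5) over single mice left out, and from -0.0028 (sensory neuron score) to 0.12 over the other settings. The fold change of Grik2 between the sexes ran from -0.59 to -0.43. With a replicate block the response comparison gave 0 members adjusted, 0 unadjusted and a median of 0.11. Correlations of same-numbered mice, over the deviations of all tested genes from their group means, were -0.019, -0.18, 0.032, -0.27, 0.013 and 0.13. These values show no pairing by replicate number, but they cannot tell whether same-numbered mice shared a step of the preparation. The 10 members below the filter rest on few fragments, and FPKM without counts gives no counting error for them.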
